A study of Mus musculus with 768 samples.

Results

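A set of 10 genes that many cells switch on within minutes of a stimulus or a stress was followed through the Schwann cells of the mouse nerve at postnatal day 5. They are Fos, Fosb, Jun, Junb, Egr1, Atf3, Ier2, Dusp1, Zfp36 and Hspa1a, and were listed by name as well known immediate-early and stress response genes. No measured value enters the rule, but the list was drawn up with earlier results of these data known. All 10 were found by their Ensembl identifiers among the 25700 genes of the deposited count table. Schwann cells were taken from sciatic nerves at postnatal day 5 and sorted singly into 2 plates of 384 wells. Each well was read with Smart-Seq2, a protocol that sequences full-length RNA copies and carries no molecular identifiers. The mice carried a Cre recombinase driven in the Schwann cell lineage, which switched on an eYFP reporter, and also a beta-actin-driven DsRed. Sorting on eYFP kept the recombined lineage. Cells of 1 male and 1 female mouse were pooled on each plate, and the labels call the plates biological replicates. Hence n = 2 plates in every test, and wells are not replicates. Nerves of both plates had been minced and digested with enzymes at warm temperature before the sort, and the design holds no cells that skipped that step.

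Wells with at least 1500 detected genes were kept and the corner wells were left out, which gave 655 wells, 325 on plate 1 and 330 on plate 2. They were placed in 4 states by other genes. A well was called cycling where at least 3 of 10 mitosis genes had 5 reads or more, which held for 57 wells. Of the others, 228 had less than 10 CPM (reads scaled to a common library size) of the myelination-linked gene Ncmap and were called immature. Among the rest, 149 with less than 30000 CPM of the myelin gene Pmp22 were called intermediate and 221 with more were called myelinating. Median reads per well were 593534 on plate 1 and 559286 on plate 2. Of the 655 wells, 652 had at least 5 reads in 3 or more of 6 Schwann cell markers. The lists for immune cells, endothelial cells, pericytes or vascular smooth muscle, neurons, skeletal muscle and erythroid cells were met by 0 wells. For each, the share of wells meeting that rule has an upper 95% limit of 0.458%, with wells taken as independent.

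Immediate-early genes are induced without new protein synthesis, because the factors that activate them, such as serum response factor, the ETS factor Elk1 and the cAMP-responsive factor Creb, already sit in the cell and wait for phosphorylation. Their transcripts are short-lived. Fos, Fosb, Jun and Junb encode the subunits of AP-1, a dimeric transcription factor, Egr1 encodes a zinc finger factor, and Atf3 a bZIP factor of the stress response. Ier2 encodes a small nuclear protein. Dusp1 encodes a phosphatase that switches MAP kinases off, and Zfp36 an RNA-binding protein that hastens the decay of transcripts with AU-rich elements. Hspa1a encodes the inducible Hsp70 chaperone under the control of heat shock factors. In Schwann cells Jun is best known as an inhibitor of myelin genes and as a driver of the repair state after nerve injury, whereas Egr2 (Krox20), a relative of Egr1, drives myelination.

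Promoter sequences are shown for 5 of the genes, since their levels over wells moved together to very different degrees. Fos and Junb formed one of the tightest pairs, Zfp36 carried the only match to a CArG box (the site of serum response factor), Jun left the common pattern in myelinating cells, and Hspa1a stood apart from the others. Each is the 250 bases before the annotated start from RefSeq (GRCm38.p6), on the strand of the gene, 5′ to 3′. They lie at chr12:85473640-85473889 for Fos on the plus strand and, on the minus strand, at chr8:84978749-84978998 for Junb, chr7:28379229-28379478 for Zfp36, chr4:95052223-95052472 for Jun and chr17:34972157-34972406 for Hspa1a. Capitals mark matches to TGACG (the core of a cAMP response element), to the CArG box or to the heat shock motifs GAANNTTC and TTCNNGAA.
Fos: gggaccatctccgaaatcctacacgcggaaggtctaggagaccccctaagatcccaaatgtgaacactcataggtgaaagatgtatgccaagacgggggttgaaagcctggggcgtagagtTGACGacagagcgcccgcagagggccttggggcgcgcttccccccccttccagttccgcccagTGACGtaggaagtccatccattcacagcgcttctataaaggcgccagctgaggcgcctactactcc
Junb: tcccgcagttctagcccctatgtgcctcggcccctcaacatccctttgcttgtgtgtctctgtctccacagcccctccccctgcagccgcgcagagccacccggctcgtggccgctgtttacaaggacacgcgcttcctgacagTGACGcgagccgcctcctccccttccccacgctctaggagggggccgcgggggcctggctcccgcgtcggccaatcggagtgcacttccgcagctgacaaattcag
Zfp36: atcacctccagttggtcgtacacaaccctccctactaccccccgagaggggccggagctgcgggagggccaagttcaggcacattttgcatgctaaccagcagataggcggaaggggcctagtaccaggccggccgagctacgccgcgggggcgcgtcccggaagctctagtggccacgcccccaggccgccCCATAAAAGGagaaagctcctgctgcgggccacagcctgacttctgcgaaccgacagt
Jun: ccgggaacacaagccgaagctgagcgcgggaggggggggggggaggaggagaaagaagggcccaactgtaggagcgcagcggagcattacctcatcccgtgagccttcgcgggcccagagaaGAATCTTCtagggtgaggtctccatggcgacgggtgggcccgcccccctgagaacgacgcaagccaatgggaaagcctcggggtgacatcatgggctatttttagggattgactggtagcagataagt
Hspa1a: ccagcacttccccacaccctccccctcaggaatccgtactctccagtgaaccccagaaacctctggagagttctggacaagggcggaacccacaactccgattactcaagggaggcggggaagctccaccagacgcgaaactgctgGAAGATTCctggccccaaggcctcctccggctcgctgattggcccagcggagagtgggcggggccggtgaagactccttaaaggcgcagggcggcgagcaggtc

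Promoters of 8 of the 10 genes were in the sequence table, and those of Egr1 and Ier2 are only named. Matches were sought on both strands. TGACG was found in 5 of the 8 promoters (Fos, Fosb, Junb, Atf3 and Dusp1) and in 17.8% of 32851 promoters of the same length. The full element TGACGTCA, which contains TGACG on both strands, was found in Dusp1 only and in 1.55% of all promoters. A CArG box was found in 1 of 8, Zfp36, where it began 58 bases before the start, and in 1.47% of all. The heat shock motifs were found in Jun and Hspa1a, beginning 128 and 104 bases before the start, and in 12.8% of all. An AP-1 site (TGANTCA) was in 0 of the 8 promoters and in 6.75% of all. Such matches describe the letters of the window and nothing else. Sites farther upstream were not searched, and a link between motifs and co-variation was not tested.

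Fos was by far the most abundant of the 10 in every state. Per kilobase of exon, the summed reads gave 3029 CPM for Fos in immature cells as the mean of both plates, against 330 for Jun, 269 for Ier2, 252 for Junb and 174 for Egr1. The other 5 lay between 17.5 for Fosb and 96.3 for Atf3. In myelinating cells Fos stood at 1463 CPM per kilobase and Junb followed with 130, while all others lay between 5.81 (Zfp36) and 39.7 (Hspa1a). Reads of Junb, Dusp1 and Hspa1a are less certain than the rest. Junb overlaps Prdx2 on the opposite strand, Dusp1 overlaps Ergic1, and the protocol does not mark strand. Hspa1a overlaps Gm20481 and is nearly identical to its neighbour Hspa1b, which held 29265 reads over all wells against 60063 for Hspa1a.

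The levels below are mean CPM over the wells of a state, each well counting the same, as mean ± SD of the 2 plates. Summed over the 10 genes, immature cells held 10368 CPM ± 513 and cycling cells 9671 ± 877. Intermediate cells held 4278 ± 343 and myelinating cells 4554 ± 390. The lowest of the 4 immature and cycling values was 9051 CPM and the highest of the 4 others 4830 CPM, so that they did not overlap. These levels are scaled by total reads only. Relative to the tests below, such scaling shifted the median log2 change of all genes by -0.38 in myelinating cells. In intermediate cells the shift was -0.14, both against immature cells. The share of all genes with such a gap was not taken. Fos made up most of each sum.

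**Figure D1:**
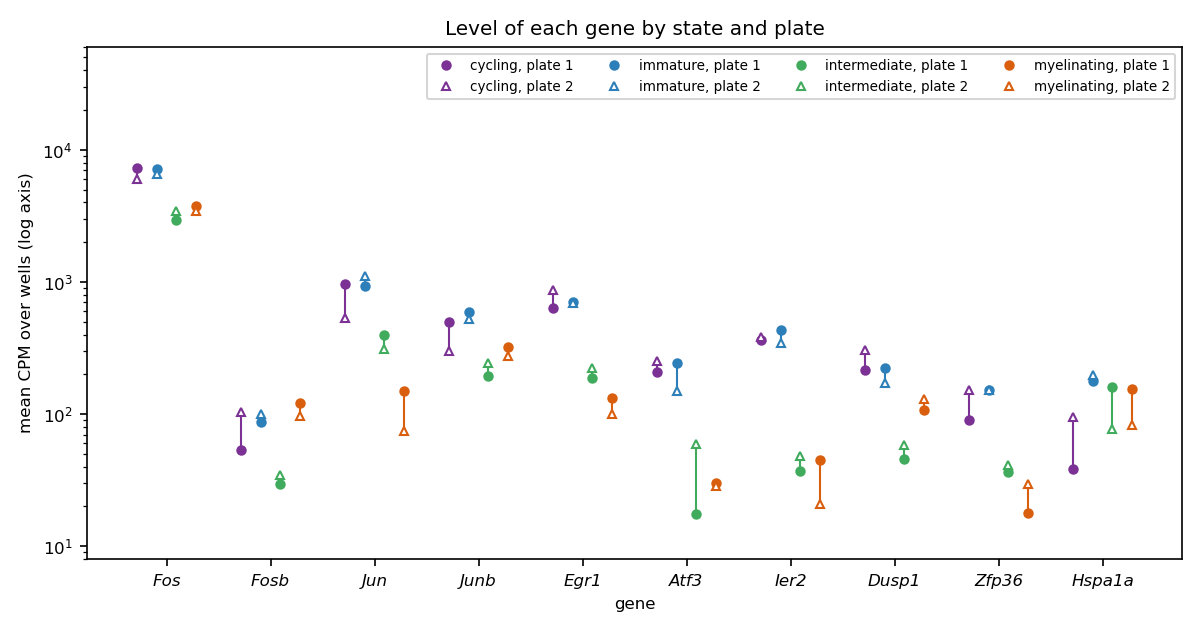
Mean level of each of the 10 genes in CPM over wells (log axis), by state and plate. Circles are plate 1 and triangles plate 2, joined by a line, with colours for the 4 states. Fos lay between 2932 and 7229 CPM throughout, Jun went from 932 and 1115 CPM in immature cells to 150.3 and 74.6 CPM in myelinating cells, and Fosb was lowest in intermediate cells.

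The first question was which of the 10 genes differ between cells that have started to express Ncmap and those that have not. In intermediate cells 5 of the 10 genes fell against immature cells and none rose, namely Fos, Egr1, Ier2, Dusp1 and Zfp36. Over all 13904 genes tested, 2.00% passed the threshold in this comparison and 1.01% passed it as lower in intermediate cells. The other 5 also had values below 0, and the median log2 change of the 10 was -1.57, against -0.03 over all genes. Tests were made with edgeR on reads summed per plate and state, so that wells weigh by their reads, and p-values were adjusted over all genes tested.

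Fos (ENSMUSG00000021250, chromosome 12, 85473890 to 85477273) had 7186 and 6555 CPM in immature cells of plates 1 and 2 and 2932 and 3422 CPM in intermediate cells. The ranges of the plates did not overlap. Its log2 change was -0.90 (SE 0.173, adjusted p 0.0354), which is 1.87-fold lower, with -0.999 and -0.81 in the plates. The call was lost with the Pmp22 border at 20000 CPM (adjusted p 0.0909) and with limma on the mean log2(CPM + 1) over wells (-1.16, adjusted p 0.0652).

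Egr1 (ENSMUSG00000038418, chromosome 18, 34859823 to 34864984) had 706 and 694 CPM in immature and 187 and 225 CPM in intermediate cells. It fell by 1.75 on the log2 scale (SE 0.219, adjusted p 0.00502), and passed under all 14 alternatives. Ier2 (ENSMUSG00000053560, chromosome 8, 84661331 to 84662852) went from 431 and 343 CPM to 37.4 and 48.3 CPM. This was the largest change of the 5, at -2.84 (SE 0.453, adjusted p 0.0164), or 7.16-fold lower. In both plates the median immature well held Ier2 and the median intermediate well held no read of it. The share of wells with a read, in wells thinned to 100000 reads, was 63.4% and 65.8% in immature cells and 26.4% and 26.1% in intermediate cells. With all reads the shares were 68.9% on either plate and 29.1% and 34.3%.

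Zfp36 and Dusp1 act in feedback. Zfp36 (ENSMUSG00000044786, chromosome 7, 28376784 to 28380253) had 151 and 152 CPM in immature cells and 36.4 and 40.9 CPM in intermediate cells, a log2 change of -1.92 (SE 0.305, adjusted p 0.0164). Dusp1 (ENSMUSG00000024190, chromosome 17, 26505590 to 26562128) had 224 and 171 CPM against 46.1 and 58.3 CPM, a change of -1.499 (SE 0.296, adjusted p 0.0399). With the plate as a block Dusp1 no longer passed (adjusted p 0.0587), nor with the Pmp22 border at 20000 CPM (0.134) or with limma on the mean log2(CPM + 1) over wells (-1.23, adjusted p 0.145). Zfp36 lost its call with that Pmp22 border (0.0691).

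Fosb, Jun and Junb had values of the same sign that did not pass. The largest was that of Fosb (ENSMUSG00000003545, chromosome 7, 19302696 to 19310051), with 87.2 and 100.1 CPM in immature and 29.7 and 34.9 CPM in intermediate cells (-1.64, SE 0.395, adjusted p 0.0893). For Jun (ENSMUSG00000052684, chromosome 4, 95049034 to 95052222) the log2 value was -1.34 (SE 0.403, adjusted p 0.190). That of Junb (ENSMUSG00000052837, chromosome 8, 84974484 to 84978718) was -1.10 (SE 0.320, adjusted p 0.172). For Atf3 (ENSMUSG00000026628, chromosome 1, 191170296 to 191218039) the plates differed widely, with log2 ratios of -4.47 and -0.75 (fit -1.72, SE 0.838, adjusted p 0.523). Hspa1a (ENSMUSG00000091971, chromosome 17, 34969190 to 34972156) had ratios of opposite sign in the plates, 0.54 and -1.55 (fit -0.41, SE 0.510, adjusted p 0.904).

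The second comparison was of myelinating with immature cells, which uses the same immature sums. Jun, Egr1, Ier2 and Zfp36 fell, 4 of the 10, and none rose. Over all genes 5.14% passed, and 2.54% as lower in myelinating cells. The median log2 change of the 10 was -1.54, against -0.04 over all genes. All 4 passed under each of the 14 alternatives.

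Jun, the inhibitor of myelin genes, had 932 and 1115 CPM in immature cells, 395 and 310 CPM in intermediate and 150.3 and 74.6 CPM in myelinating cells. The order of the 3 states was the same in both plates and no ranges overlapped. By edgeR neither single step of Jun passed, with adjusted p 0.190 from immature to intermediate and 0.176 from intermediate to myelinating cells. From immature to myelinating cells Jun fell by 2.92 on the log2 scale (SE 0.426, adjusted p 0.00466), 7.57-fold, with -2.16 and -3.87 in the plates. The median myelinating well of plate 1 held 9.99 CPM of Jun and that of plate 2 held none, whereas single wells reached 2131 and 794 CPM.

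Egr1 fell by 2.43 (SE 0.224, adjusted p 3.72e-04), to 133 and 99.7 CPM in myelinating cells. Ier2 fell by 3.22 (SE 0.461, adjusted p 0.00415), to 45.05 and 21.02 CPM, and Zfp36 fell by 2.66 (SE 0.314, adjusted p 0.00139), to 17.7 and 29.4 CPM. Ier2, at 9.33-fold, was the largest of the 4. For each of these 3 genes the myelinating plates lay below both immature plates. In CPM of the summed reads the plates lay apart for 8 of the 10 genes, although only 4 passed. The share of all genes with such a separation was not taken.

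Of the genes for AP-1 subunits Jun passed in this comparison, and Fos, Junb and Fosb did not. Fos stood at 3748 and 3438 CPM in myelinating cells, below both immature plates, with a log2 change of -0.67 (SE 0.172, adjusted p 0.0686) that missed the threshold, though it passed under 5 of the 14 alternatives. Junb had 322 and 276 CPM (-0.57, SE 0.317, adjusted p 0.448). Fosb had 122 and 97.5 CPM, within or above its range in immature cells (0.32, SE 0.385, adjusted p 0.825). With limma on the mean log2(CPM + 1) over wells Fosb passed as higher in myelinating cells (1.57, adjusted p 0.0250), the only one of the 14 alternatives that called it. Wells with a read of Fosb made up 34.9% and 40.98% of immature and 65.7% and 63.7% of myelinating wells, and 31.7% and 39.3% against 58.5% and 61.1% after thinning to 100000 reads. That these changes differ from that of Jun was not tested. Atf3 had 30.1 and 28.4 CPM against 245 and 149 CPM in immature cells, with a change of -2.40 (SE 0.858, adjusted p 0.195), and single immature wells reached 4977 CPM. Dusp1 changed by -0.53 (SE 0.290, adjusted p 0.444) and Hspa1a by -0.40 (SE 0.510, adjusted p 0.841).

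**Figure D2:**
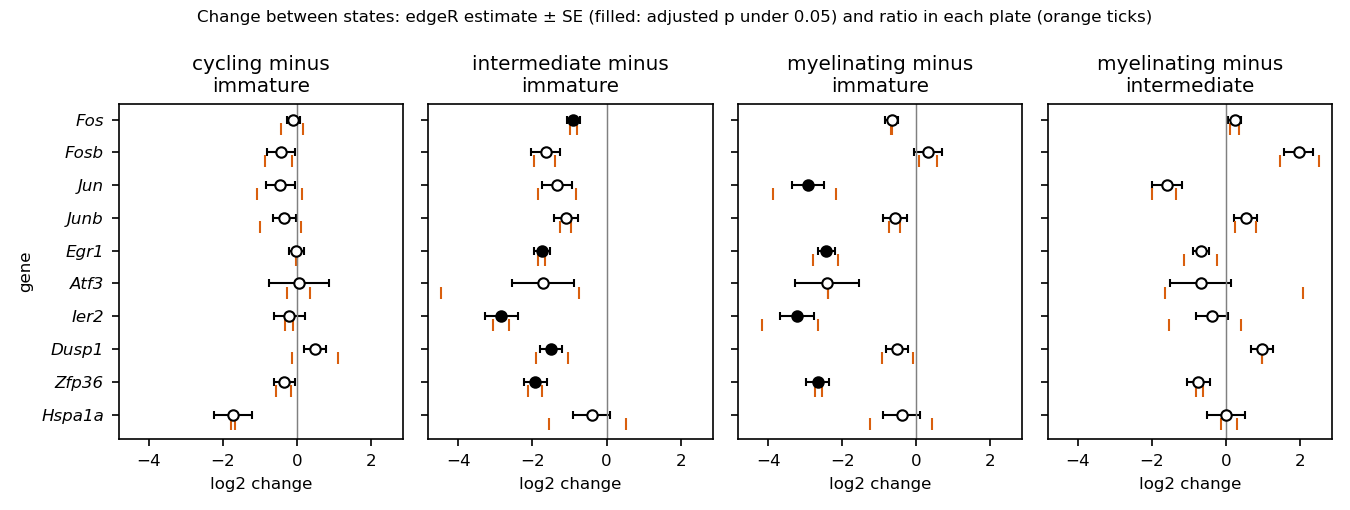
Log2 change of each gene in the 4 comparisons, from edgeR on 8 sums of reads (2 plates, 4 states), with bars of 1 SE. Filled points passed an adjusted p of 0.05 and orange ticks give the ratio within each plate. The filled points are the 5 genes lower in intermediate and the 4 lower in myelinating than in immature cells, and the widest plate difference is that of Atf3.

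Between myelinating and intermediate cells 0 of the 10 passed with edgeR, where 0.784% of all genes did. At an unadjusted p under 0.05 there were 5, and DESeq2 called 3 and limma on the mean log2 level over wells 1. The share of all genes was taken for edgeR with adjusted p only. Counts at an unadjusted p or by another tool, here and below, have no such share beside them. Fosb had 122 and 97.5 CPM in myelinating and 29.7 and 34.9 CPM in intermediate cells, with no overlap (1.96, SE 0.399, adjusted p 0.0818). Thinned to 100000 reads, 58.5% and 61.1% of myelinating wells held a read of Fosb, against 20.8% and 27.5% of intermediate wells. With all reads the shares were 65.7% and 63.7% against 24.1% and 34.3%. Dusp1 had 107 and 131 CPM against 46.1 and 58.3 CPM (0.97, SE 0.292, adjusted p 0.261). Jun went the other way (-1.58, SE 0.406, adjusted p 0.176), as did Egr1 (-0.68, SE 0.214, adjusted p 0.301) and Zfp36 (-0.74, SE 0.297, adjusted p 0.469). Each of these 5 had the same sign in both plates.

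Cycling cells, which are few (32 and 25 wells), were set against immature cells. By edgeR 0 of the 10 genes passed, against 2.58% of all genes, with 1 at an unadjusted p under 0.05, 1 by DESeq2 and 0 by limma. Fos had 7229 and 6063 CPM in cycling cells, a range that takes in both immature plates, and Egr1 632 and 864 CPM. Hspa1a was the one with the low unadjusted p, at 38.5 and 95.8 CPM against 177 and 199 CPM (-1.73, SE 0.525, adjusted p 0.149). The SE of the log2 changes ran from 0.172 for Fos to 0.815 for Atf3, which sets how small a difference could be seen.

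Markers of other cells moved with these levels in 1 case. The summed level of 6 fibroblast-like markers was 2314 and 2452 CPM in immature cells, 2313 and 3122 CPM in cycling, 1284 and 1056 CPM in intermediate and 306 and 299 CPM in myelinating cells. Most of it came from the collagens Col3a1 and Col1a1. Pdgfra, a defining fibroblast marker, was at 0 in cycling and immature cells and at most 0.357 CPM in the other states, and Dcn was at most 15.99 CPM. Fbln1 went with the collagens, at 33.1 CPM in cycling and 10.3 CPM in immature cells and at 0 in the others. Lum was highest in intermediate cells, at 11.8 CPM. The list was met by 51 wells, 22 of them immature, 18 cycling, 8 intermediate and 3 myelinating. By plate these were 25% and 40% of cycling wells and 7.55% and 11.5% of immature wells. The shares were 5.06% and 5.71% of intermediate and 0.926% and 1.77% of myelinating wells. Without these wells 3 of the 10 genes fell in intermediate cells in place of 5, since Dusp1 (-1.46, adjusted p 0.316) and Zfp36 (-1.78, adjusted p 0.0576) no longer passed. Their log2 changes were close to those with all wells, -1.499 and -1.92. In myelinating cells 5 fell in place of 4, Fos being added (-0.63, adjusted p 0.0223). The part of these wells in the remaining differences was not tested beyond that.

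Other genes of the same response were read from lists of related genes. Of 39 further immediate-early and early response genes 35 could be tested, and 4 fell in intermediate cells and none rose, where 2.00% of all genes passed and 1.01% as lower. In myelinating cells 3 fell and 2 rose, where 5.14% of all genes passed and 2.54% as lower. Their median log2 change was -0.87 in intermediate and -0.61 in myelinating cells against immature ones.

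Ccn1 (also Cyr61), a secreted matrix protein gene, had the largest fall of the listed genes that passed in intermediate cells. In CPM of the summed reads, the scale of all values in the account of these lists, it had 1964 and 2168 CPM in immature, 196 and 126 CPM in intermediate and 945 and 611 CPM in myelinating cells. It fell by 3.54 on the log2 scale from immature to intermediate cells (SE 0.314, adjusted p 8.18e-04) and rose by 2.51 from intermediate to myelinating cells (SE 0.301, adjusted p 0.00729). The rise was lost with the Pmp22 border at 40000 CPM (1.87, adjusted p 0.0715). Fosb had its lowest plate values in intermediate cells too, as given above.

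The relatives of Egr1 went in opposite directions. Egr3, a zinc finger factor gene of the same family, had 51.9 and 66.4 CPM in immature, 8.43 and 6.08 CPM in intermediate and 0.599 and 0.986 CPM in myelinating cells. Its log2 changes against immature cells were -2.89 (adjusted p 0.0277) and -5.84 (adjusted p 6.40e-04), and -2.95 between the last 2 (adjusted p 0.0459). The step from intermediate to myelinating cells was lost under 6 of 14 alternatives, and that from immature to intermediate cells under 2. These were leaving out the wells that met the fibroblast-like list (-2.90, adjusted p 0.0821) and the Pmp22 border at 20000 CPM (-2.47, adjusted p 0.0632). Egr2, the driver of myelination, rose in myelinating cells from 103 and 110 CPM to 250.3 and 161 CPM (1.34, SE 0.275, adjusted p 0.0245). Egr2 did not pass without the wells meeting the fibroblast-like list, at a change of 1.35 (adjusted p 0.0658), nor under scaling by total reads, at 0.95 (adjusted p 0.0733).

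Orphan nuclear receptor genes split as well. Nr4a1 fell in myelinating cells, from 1242 and 1374 CPM to 297 and 256 CPM (-1.86, SE 0.174, adjusted p 4.01e-04). Nr4a2 rose from 56.1 and 84.1 CPM to 257 and 215 CPM (2.13, SE 0.285, adjusted p 0.00291). Cebpd, a bZIP factor gene of the acute phase response, fell by 2.44 in intermediate (adjusted p 0.0269) and by 3.52 in myelinating cells (adjusted p 0.00228). The former did not pass without the wells meeting the fibroblast-like list, where the change was -2.62 (adjusted p 0.0568).

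Feedback inhibitors and mRNA decay factors numbered 12 tested genes, of which 1 fell in intermediate and 3 in myelinating cells, where 1.01% and 2.54% of all genes passed as lower. Zfp36l1, the relative of Zfp36, fell at each step, from 223 and 294 CPM in immature to 40.4 and 32.3 CPM in intermediate and 4.53 and 4.24 CPM in myelinating cells (log2 changes -2.69 and -5.50 against immature, adjusted p 0.00141 and 2.32e-05). Spry2 and Dusp6, inhibitors of the receptor kinase and ERK pathway, fell by 2.85 (adjusted p 0.00912) and 2.04 (adjusted p 0.0469) in myelinating cells. Dusp6 did not pass with the plate as a block (-2.15, adjusted p 0.0549), with the Pmp22 border at 40000 CPM (-1.85, adjusted p 0.0763) or without the wells meeting the fibroblast-like list (-2.01, adjusted p 0.0722).

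Of 15 tested heat shock genes 0 fell in intermediate or myelinating cells against immature ones and 1 rose in both. Over all genes 2.00% and 5.14% passed there in either direction, so that so short a list would hold few calls at the same share. At an unadjusted p under 0.05 there were 4 in each. The gene that rose was Cryab, the small heat shock protein gene, with 1529 and 1558 CPM in immature, 3286 and 3691 CPM in intermediate and 3669 and 4101 CPM in myelinating cells (1.31 and 1.72, adjusted p 7.48e-04 and 6.72e-05). In cycling cells, where 2.58% of all genes passed, Cryab fell by 0.63 (adjusted p 0.0248), but did not pass with limma (-0.56, adjusted p 0.0663). Hsp90aa1, the inducible Hsp90 gene, rose by 0.999 there (adjusted p 0.0157), and did not pass without the wells meeting the fibroblast-like list (0.81, adjusted p 0.139). The median log2 change of the list was 0.04 in intermediate cells and -0.30 in myelinating cells.

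Of 20 tested upstream regulators, among them serum response factor, Elk1, Creb1 and the MAP kinases, 0 passed in any of the 4 comparisons with edgeR, in which 0.784% to 5.14% of all genes passed. At an unadjusted p under 0.05 there were 2 in cycling, 0 in intermediate and 3 in myelinating against immature cells. Of 10 genes linked to Jun in the repair state 5 were tested and 0 passed, with 1 to 2 at an unadjusted p under 0.05 in each comparison. The other 5 were too low to test.

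Within a state, single wells ranged widely. In immature cells of plate 1 Fos ranged from 0 to 29033 CPM, with a median of 5322 and quartiles of 809 and 12056 CPM. On plate 2 the highest well had 23944 CPM and the median was 5076. A level under 100 CPM, a limit set after the values were seen, was found in 29 of 228 immature wells, 25 of 149 intermediate, 8 of 57 cycling and 14 of 221 myelinating wells. The 10% of wells with the most reads of Fos held 39.4% and 39.9% of all Fos reads of immature cells, and 30.7% and 29.6% of those of myelinating cells.

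A read of Fos alone says little of a cell. It was seen in 96.0% to 100% of wells in every state and plate, but also in 76.2% of the 105 wells outside the corners that were not retained, whose median was 798 reads. Their summed reads gave 594 CPM of Fos, a value weighted to the deepest of them, which reached 837793 reads. For the other genes the share of such wells with a read was between 2.86% (Fosb and Zfp36) and 24.8% (Jun).

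The number of the 10 genes seen together in a well also differed between states. In wells thinned to 100000 reads, at least 6 of the 10 genes had a read in 64.2% of 218 immature and 72.7% of 55 cycling wells. The shares were 32.6% of 141 intermediate and 32.4% of 219 myelinating wells. With all reads they were 68.9%, 71.9%, 43.6% and 42.1%. By plate, the thinned shares were 58.4% and 69.2% in immature and 74.2% and 70.8% in cycling cells, against 31.9% and 33.3% in intermediate and 34.9% and 30.1% in myelinating cells. A total of 22 wells were too shallow to thin, 10 of them immature.

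Co-variation was measured as the Spearman correlation of CPM over the wells of one state and plate. These are descriptions over wells that share a plate, a depth range and animals. Pairs of genes that were each seen in at least 50% of the wells had a median rho of 0.62 and 0.52 in immature cells of plates 1 and 2, and of 0.51 and 0.56 in cycling cells. In intermediate cells the medians were 0.37 and 0.48 and in myelinating cells 0.40 and 0.46. They rest on 15 pairs on either plate in immature, 15 and 21 in cycling and 6 on either plate in intermediate cells. In myelinating cells they rest on 10 pairs on plate 1, of which 8 were above 0, and on only 3 on plate 2. Over all pairs of genes seen in 50% of the wells the median lay between 0.01 and 0.05 in each state and plate. All 15 pairs were above 0 in immature cells of either plate.

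The genes that met the limit were not the same in each state. Ier2 and Zfp36 were seen in 50% of the wells of immature and cycling cells but not later. Fosb met the limit only in myelinating cells, at 65.7% and 63.7%. In myelinating cells of plate 2 Jun (47.8%) and Egr1 (44.2%) fell below it, and they still enter the next values. Over the same 4 genes (Fos, Jun, Junb and Egr1), a set chosen after the values were seen, the median was 0.65 and 0.56 in immature, 0.63 and 0.72 in cycling, 0.37 and 0.48 in intermediate and 0.29 and 0.28 in myelinating cells. The plates of myelinating cells lay below all others. Over all 45 pairs of the 10 genes the mean of both plates was 0.29 in immature and 0.10 in myelinating cells.

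The tightest pair was Fos with Egr1, with rho from 0.46 to 0.90 over the 8 combinations of state and plate and a median of 0.70. Fos with Junb followed, from 0.56 to 0.78 (median 0.63), and Junb with Egr1, from 0.33 to 0.81 (median 0.57). Of all pairs with Fos, that with Junb varied least between states. In immature wells of plates 1 and 2 Fos went with Egr1 at 0.79 and 0.72, and in myelinating wells at 0.62 and 0.46.

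Jun was part of this group in immature cells and hardly in myelinating cells. Its rho with Fos was 0.57 and 0.49 over 106 and 122 immature wells, 0.31 and 0.50 in intermediate and 0.04 and 0.10 over 108 and 113 myelinating wells. With Junb it was 0.50 and 0.48 in immature and 0.08 and 0.11 in myelinating cells. Jun was seen in 65.7% and 47.8% of myelinating wells, so many wells without a read enter those values. Fosb with Fos stood at 0.53 and 0.45 in immature and 0.48 and 0.46 in myelinating cells.

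**Figure D3:**
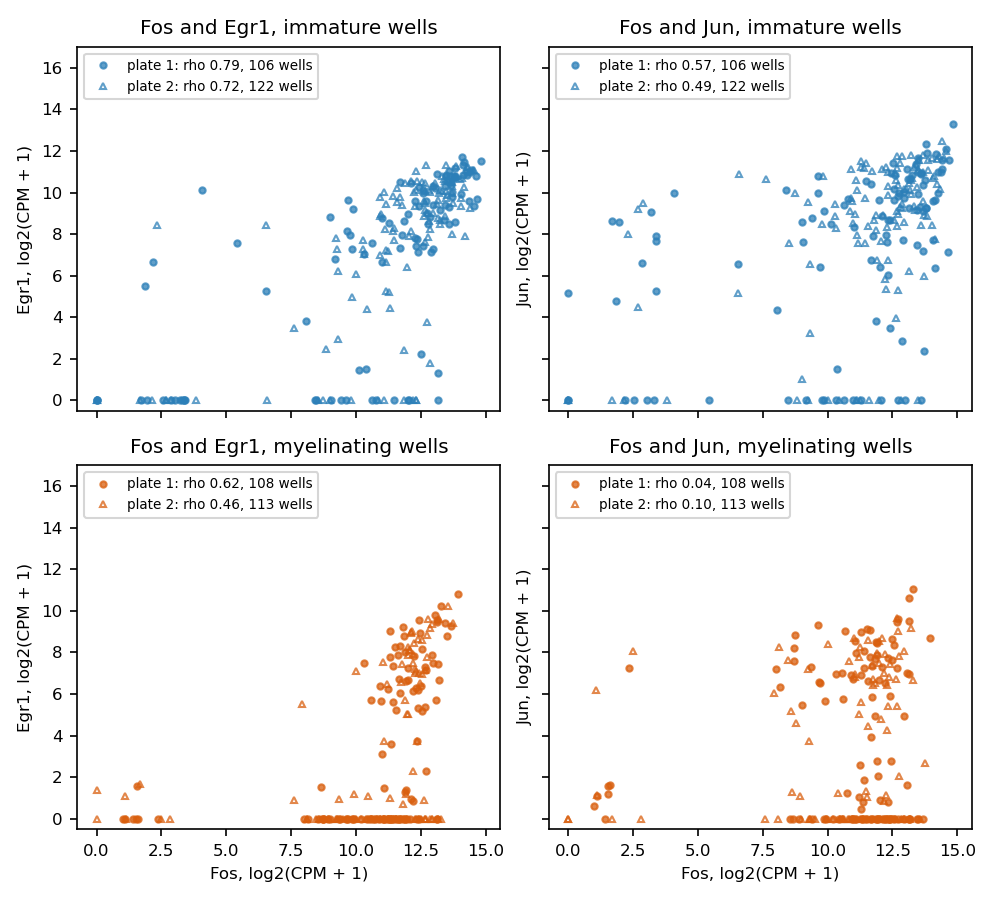
Level of Egr1 (left) and Jun (right) against Fos in single wells, as log2(CPM + 1), for immature wells (top) and myelinating wells (bottom), with circles for plate 1 and triangles for plate 2. Fos and Egr1 rise together in both states (rho 0.79 and 0.72, then 0.62 and 0.46), while Fos and Jun do so in immature wells (0.57 and 0.49) and not in myelinating ones (0.04 and 0.10).

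In immature wells Zfp36 and Ier2 were among the genes tied closely to Egr1. Zfp36 followed Egr1 at 0.65 and 0.64 in immature and at 0.27 and 0.18 in myelinating wells, and Ier2 followed Egr1 at 0.64 and 0.62 and at 0.47 and 0.22. The median rho of Dusp1 with the other 9 genes was between 0.09 and 0.23 outside cycling cells. Atf3 had medians of 0.28 and 0.17 in immature cells and of -0.04 and 0.10 in myelinating cells, where it was seen in 17.6% and 20.4% of wells.

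Hspa1a did not follow the others. Its median rho with the other 9 was 0.10 and 0.06 in immature cells, 0.08 and 0.06 in intermediate and -0.11 and 0.01 in myelinating cells. Of its 9 pairs the highest median over the 8 combinations was 0.22, with Jun. In cycling cells of plate 2, with 25 wells, its median was 0.28, and on plate 1 it was 0.0008.

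**Figure D4:**
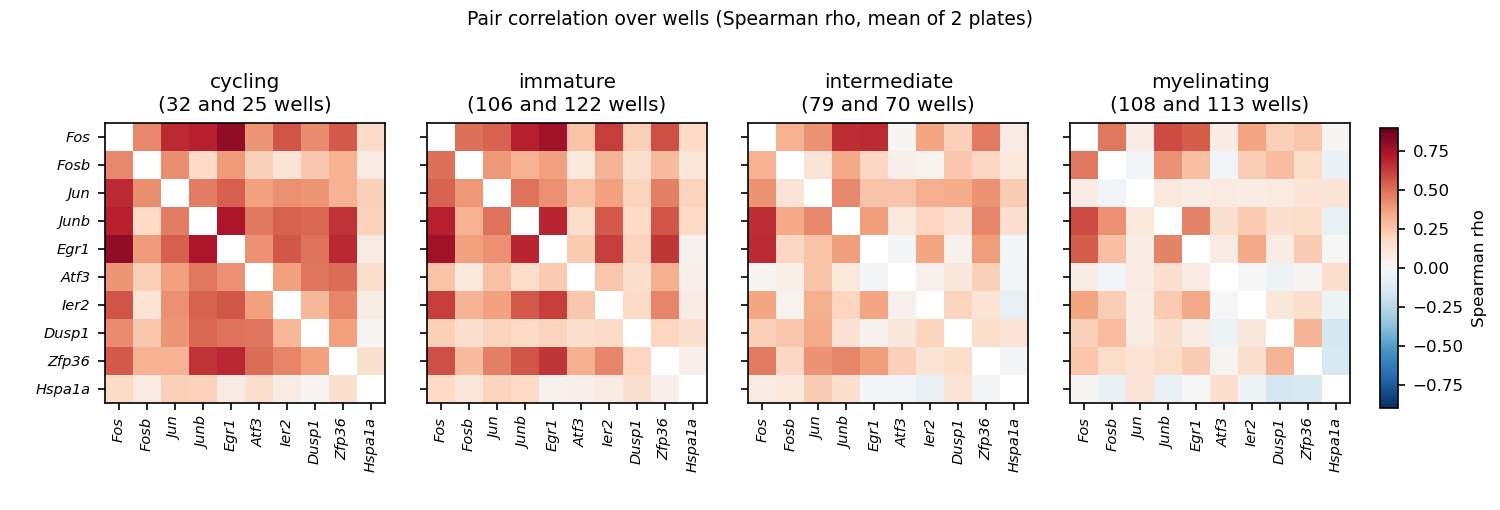
Spearman correlation of each pair of the 10 genes over wells, as the mean of the 2 plates, in one panel for each state. Red is positive and blue negative. The block of Fos, Junb and Egr1 is red in all 4 panels, the rows of Jun, Ier2 and Zfp36 fade from immature to myelinating cells, and that of Hspa1a is pale throughout.

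Among 2372 other genes seen in at least 50% of the retained wells, those whose levels ran most like the 10 were sought by the median rho with the mean rank of the 10 genes over the 6 combinations of non-cycling state and plate. Nr4a1 came first at 0.45, then Socs3 (0.41), an inhibitor of cytokine signalling, Ccn1 (0.39), Phlda1 (0.32), Klf6 (0.32), a zinc finger factor, and Dusp6 (0.28). Rsrp1 (0.27), Tspan3, Hspa8 and Sdc4 (0.25 each) completed the first 10. The median over all 2372 genes was 0.01, and 5 genes reached 0.3. Nr4a1, Socs3, Ccn1, Klf6, Dusp6 and Hspa8 stand on the lists of related genes.

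The likeness was not even over states. Socs3 had 0.62 and 0.66 in immature wells and 0.38 and 0.33 in myelinating wells, while Nr4a1 had 0.45 and 0.34 and then 0.58 and 0.57. Ccn1 had 0.48 and 0.46 in immature and 0.11 and 0.20 in intermediate wells. Thus, among the 10 other genes listed, Nr4a1 was the one closest to the set in myelinating cells, although its level there was lower than in immature ones. The 2372 genes were not ranked within myelinating wells alone.

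**Figure D5:**
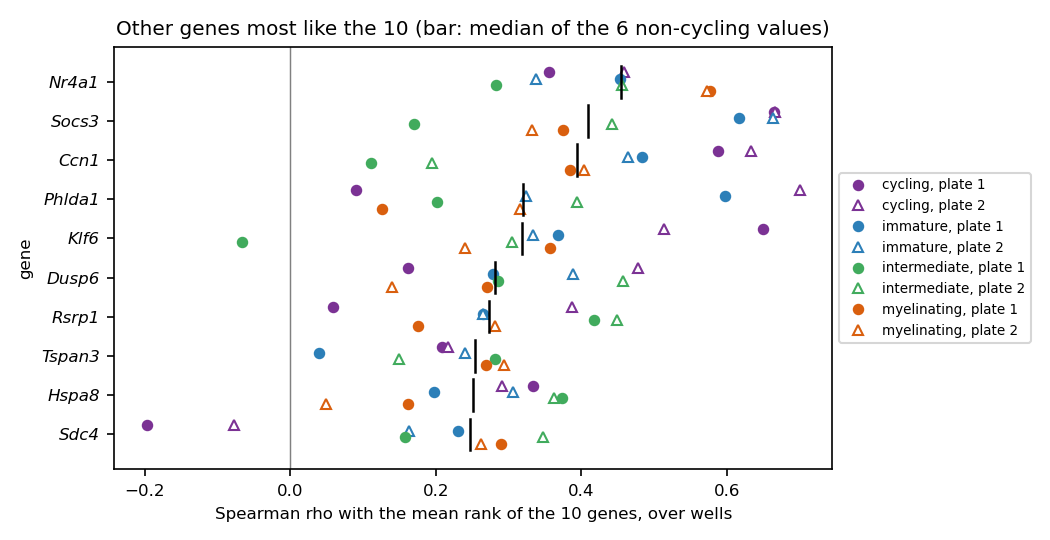
Spearman rho of the 10 other genes most like the set with the mean rank of the 10 genes over wells, by state (colour) and plate (circle or triangle). Black bars give the median of the 6 non-cycling values, from 0.45 for Nr4a1 to 0.25 for Sdc4.

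Position and depth were set beside the mean rank of the 10 genes. Over the retained wells of plates 1 and 2 its rho was 0.09 and -0.08 with the plate row, -0.03 and -0.07 with the plate column, -0.02 and -0.02 with total reads and 0.01 and -0.06 with the number of detected genes. Within immature wells the rho with total reads was -0.01 on plate 1 and 0.31 on plate 2. With detected genes it was -0.003 and 0.14 in immature and 0.25 and 0.15 in cycling wells. In intermediate wells it was 0.21 and 0.24, and in myelinating wells 0.08 and 0.12. With total reads and detected genes of the well taken out by partial correlation, the median pair rho as the mean of both plates was 0.56 in immature, 0.55 in cycling, 0.43 in intermediate and 0.44 in myelinating cells, against 0.57, 0.53, 0.42 and 0.43 without. With the share of mitochondrial reads the rank had a rho of -0.07 and -0.09. Over all retained wells the rank had a rho of 0.26 and 0.35 with Ngfr, a marker of immature cells, and of -0.29 and -0.37 with Ncmap, which also set the border of the immature state. With Pmp22 it was -0.23 and -0.27 over all retained wells, and of the opposite sign, 0.28 and 0.29, over myelinating wells alone. With Egr2 it was -0.0043 and -0.00066 over all retained wells. Within single states the rho with Egr2 was 0.31 and 0.33 in cycling and 0.23 and 0.26 in immature wells. In intermediate wells it was 0.05 and 0.07, and in myelinating wells 0.05 and 0.06.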

How the data were processed

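Single Schwann cells in 768 wells of 2 plates were read by Smart-Seq2. The deposited values are read counts per gene and well, not normalized. Per the labels, reads were demultiplexed with bcl2fastq, aligned with STAR (version 2.6.1c) to the mouse build GRCm38.p5 and counted with featureCounts. The study's methods name another build and STAR version for its data, while the gene identifiers in the table are mouse. Coordinates and symbols here are from GENCODE vM21, in which 25664 of 25700 identifiers were found.

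Wells with fewer than 1500 genes and the corner wells were left out. No doublet caller was run. Reads were summed per plate and state, and the 8 sums were compared with edgeR (version 4.0.16, R 4.3.3) by its quasi-likelihood test with TMM scaling, its filter on low counts and state as the only term. P-values were adjusted by the Benjamini-Hochberg method over 13904 genes, with a threshold of 0.05 and 4 residual degrees of freedom. Alternatives were DESeq2 (1.42.0), limma (3.58.1) on the mean log2(CPM + 1) over wells, other scalings, borders and filters, thinning to 100000 reads and leaving out a plate. Scripts were tested on simulated counts with less spread between sums than the data had. That checks the code only, not how small a change could be seen here. Correlations and ranks were computed in Python 3.11.15 with scipy 1.17.1.

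The sums of a plate come from the same animals, so that plate numbers pair them. Correlations of deviations over 1990 genes ran from -0.0095 to 0.122 between states. Without molecular identifiers, reads are not independent molecules, and limits for counts of 0 cover counting error only. All 10 genes were named, and of the lists of related genes at most 3 per direction, list and comparison that passed with a mean of 20 CPM or more. The genes, the lists and the borders of the states were chosen with earlier results of these data known.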

Additional observations from a re-analysis of the deposited data

Results flagged for a closer look

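Wells that entered no comparison also held reads of the 10 genes, and are given here for that reason. Of the 105 wells outside the corners that were not retained, 76.2% had a read of Fos. Their summed reads gave 594 CPM of Fos, against 3173 to 7531 CPM in the summed reads of retained wells by state and plate. The 105 wells held from 169 to 837793 reads with a median of 798, so that their summed value is weighted to the deepest wells. The 8 corner wells, with 4538 to 57421 reads each, gave 744 CPM for the 10 genes together, from 118 reads. Fos was read in 7 of the 8 and made up 15 of these reads. The summed reads of the retained wells gave 4223 to 11101 CPM of the 10 genes by state and plate.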

How the results depend on the processing

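The calls of Egr1 and Ier2 in intermediate cells and those of Jun, Egr1, Ier2 and Zfp36 in myelinating cells against immature ones held under all 14 alternatives with a test. With 1 plate left out no test is left, and each log2 value is then the ratio of the other plate. The number of the 10 genes past the threshold in intermediate cells, 5 in the main fit, was 9 without a filter on low counts, 8 with DESeq2, 3 with limma, 3 without the wells meeting the fibroblast-like list and 2 with the Pmp22 border at 20000 CPM. Between myelinating and intermediate cells it was 3 without the filter, 3 with DESeq2, 2 after thinning, 1 with limma and 1 without plate columns 8 and 16. In cycling cells it was 1 without the filter and 1 with DESeq2. The plate as a replicate block gave 0, 4, 4 and 0 in cycling, intermediate and myelinating against immature and myelinating against intermediate cells. The block ended the calls of Dusp1 (-1.52, adjusted p 0.0587), Egr3 between myelinating and intermediate cells (-3.005, adjusted p 0.0692) and Dusp6. Shares of all genes past the threshold were taken in the main fit only. Counts under an alternative, here, above and for the other lists below, have no such share beside them.

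Genes of the other lists past the threshold numbered 2, 6, 9 and 3 in the same order. DESeq2 gave 5, 17, 14 and 11. Limma gave 12, 17 and 5 in the last 3. In intermediate cells there were 16 without the filter and 11 after thinning, in myelinating cells 14 with scaling by total reads. Between myelinating and intermediate cells there were 9 without the filter and 1 with the Pmp22 border at 40000 CPM. In cycling cells there was 1 without the wells meeting the fibroblast-like list. Scaling by total reads shifted the median of all genes by -0.38 in myelinating, -0.14 in intermediate and -0.10 in cycling against immature cells and by -0.22 between the first 2, and limma by 0.12 in myelinating and 0.21 in cycling cells.

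Signs reversed in 27 cases, all of genes that did not pass in the main fit. In cycling cells Fos was at 0.040 after thinning and 0.063 without the wells meeting the fibroblast-like list, and Zfp36 at 0.082 without them. Fosb was at 0.27 with limma, and Ier2 at 1.00 with limma and 0.081 after thinning. Egr1 was at 0.070 with DESeq2 or its size factors, 0.023 with a minimum of 2500 genes, 0.024 with the Ncmap border at 20 CPM, 0.19 after thinning, 0.46 with limma and 0.30 without those wells. Atf3 was at -0.050 with total reads, -0.049 with a minimum of 2500 genes, -0.025 with the block and -0.045 with limma. In myelinating against intermediate cells Fos was at -0.013 with total reads and Atf3 at 0.30 after thinning and 0.14 with limma. Hspa1a was there at -0.23 with total reads, -0.010 with the Ncmap border at 5 CPM, -0.083 and -0.29 with the Pmp22 border at 20000 and 40000 CPM and -0.35 with limma, and at 0.15 with limma in intermediate against immature cells. Fosb was at -0.064 with total reads in myelinating against immature cells. The cause was not tested.

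The median pair correlation, as the mean of both plates, was 0.53 in cycling, 0.57 in immature, 0.42 in intermediate and 0.43 in myelinating cells. Over all 45 pairs it was 0.43, 0.29, 0.20 and 0.10. With the same 4 genes it was 0.67 in cycling and 0.28 in myelinating cells. It was 0.48 in cycling cells with a minimum of 2500 genes, 0.50 in immature cells as a Pearson correlation, and 0.35 after thinning and 0.32 without columns 8 and 16 in myelinating cells. With 1 plate left out it ranged from 0.51 to 0.56, 0.52 to 0.62, 0.37 to 0.48 and 0.40 to 0.46 in that order of states. The summed level was 4700 CPM in intermediate cells when taken from summed reads and 10656 CPM in cycling cells without the wells meeting the fibroblast-like list. With 1 plate left out it ranged from 9051 to 10290.5 CPM in cycling, 10005 to 10730.1 in immature, 4035 to 4520.4 in intermediate and 4279 to 4830 in myelinating cells.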

Other observations

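The genes whose levels ran most against the 10 over wells of the non-cycling states were Cuedc2 (median rho -0.26), Csrp2 (-0.25), Mpp6 (-0.22), Kcnj10 (-0.19) and Emid1 (-0.19). These are descriptions over wells, with the same rule as for the genes most like the 10.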
